A study of Mus musculus with 3 samples.

Results

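*Fabp3*, *Fabp4*, *Fabp5*, *Fabp7*, *Crabp1*, *Crabp2*, *Rbp4* and *Ppard* were followed through the cell populations of growing mouse long bone. These 8 genes were chosen by name, as rows of the 55422 genes in the deposited count tables, by their family and not by a threshold on any value. The study took bone stromal cells from untreated males aged 3 weeks and made 3 droplet scRNA-seq libraries. The 2 metaphyseal libraries held cells of the C57BL/6J metaphysis, the zone of new bone below the growth plate, after lineage, CD45 and CD117 depletion of blood-forming cells. The third library held GFP+ cells sorted from heterozygous *Pdgfra-H2B-GFP* knock-in reporter males, in which the *Pdgfra* locus drives a nuclear GFP, so one *Pdgfra* allele carried the reporter. Whether animals were pooled for a library was not stated. Library entered the tests as a block, so the p-values measure the spread that remains between summed counts per population and library. For each gene that spread was estimated jointly over all populations.

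Fatty-acid binding proteins are small cytosolic carriers that hold long-chain fatty acids and related lipids and hand them to membranes, enzymes and nuclear receptors. *Crabp1* and *Crabp2* hold retinoic acid in the same way, *Rbp4* carries retinol through the blood, and *Ppard* is a nuclear receptor for fatty acids. In cultured cells *Fabp5* has been described as a shuttle of retinoic acid to *Ppard* and *Crabp2* as a shuttle to the retinoic acid receptors, and in bone FABP5 protein is the marker by which septoclasts (SCs), the cartilage-resorbing cells next to the growth plate, are recognised.

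Counts were of unique molecular identifiers (UMIs), each marking 1 captured RNA molecule, and levels are given as CPM, the UMIs of a gene per 1000000 UMIs of the population. After filtering, 2382, 2004 and 11250 cells remained in metaphyseal libraries 1 and 2 and the *Pdgfra-GFP* library, with 19145103, 16500253 and 75390877 UMIs. Cells were placed in populations by the UMIs of marker genes, none of which was among the 8 genes, and every population name below stands for such a gate. No gate was passed by 41, 15 and 526 cells of the 3 libraries, and these cells belong to no population below. All 7 SC markers (*Sstr2*, *Cd55*, *Otos*, *Cotl1*, *Egfr*, *Fbln1* and *Mmp9*) had UMIs in the SCs of every library. These genes make up the SC gate, so their presence is no independent support for the name. The SC gate cut a graded score at 0.3 among cells of SC and metaphyseal mesenchymal stromal cell (mpMSC) type, and 9 of 127, 10 of 105 and 118 of 2014 such cells lay within 0.05 of that cut. SCs were few in the metaphyseal libraries, with 19 and 12 cells against 283 in the *Pdgfra-GFP* library. The *Pdgfra-GFP* library shared 9 cell barcodes with metaphyseal library 1 and 10 with library 2. Endothelial cells (ECs) of the *Pdgfra-GFP* library, 315 of 11250 cells, were left out of the tests because the sort should have removed them. Macrophages, osteoclasts, neutrophils, B-lineage and erythroid cells of that library were not left out, and their sums stayed in the fit.

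All 8 genes are protein coding. *Fabp5* (chr3:10012548-10016607, + strand) and *Fabp4* (chr3:10204088-10208576, - strand) lie 187480 bp apart on GRCm38 in the Gencode M21 annotation, with *Pmp2* and *Fabp9*, of the same family, between them. *Crabp2* lies further along the same chromosome (chr3:87948666-87953376, +). *Fabp3* is at chr4:130308595-130315463 (+), *Crabp1* at chr9:54764748-54773110 (+), *Fabp7* at chr10:57784881-57788450 (+), *Ppard* at chr17:28232700-28301474 (+) and *Rbp4* at chr19:38116629-38125281 (-). The annotation also lists the processed pseudogenes *Fabp5l2* and *Fabp3-ps1*, with which reads of *Fabp5* and *Fabp3* could be shared.

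The 8 genes divided the bone between them: *Fabp5* was highest in SCs and mural cells, *Fabp4* in sinusoidal ECs, *Fabp3* in osteoblastic cells (OBs), *Fabp7* in mural cells, *Crabp2* in fibroblasts and *Rbp4* in chondrocytes, while *Ppard* was spread over nearly all populations and *Crabp1* was hardly detected. Of the 8 genes, 7 passed the filter on low counts in the test across populations, and *Crabp1* did not. *Crabp2* and *Fabp7* were at 0 or a few UMIs in many of the sums, so a gene that passed through the population where it is high had to differ somewhere. Comparisons against mpMSC all use the same mpMSC sums and are therefore not independent of each other.

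**Figure D1:**
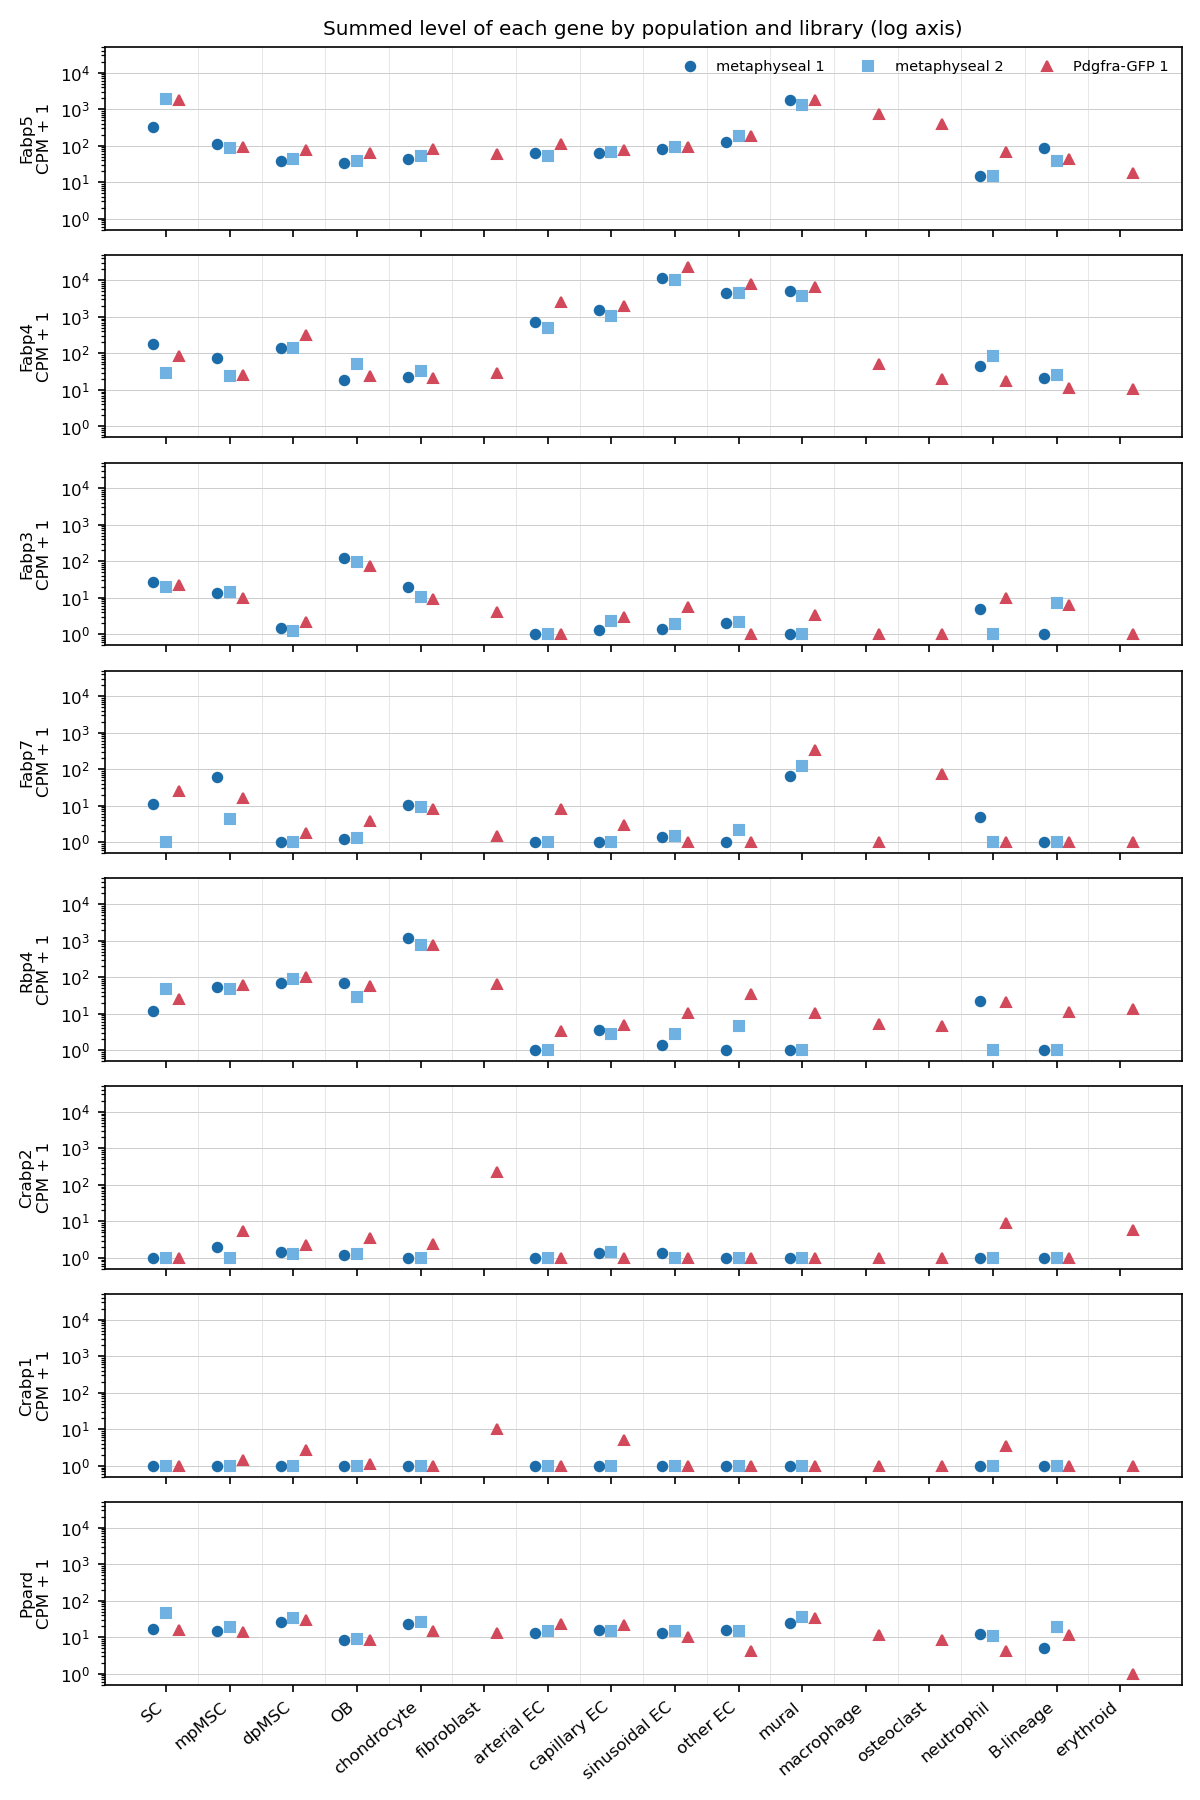
Level of each of the 8 genes (CPM + 1, log axis) in 16 gated populations, 1 point per library with at least 10 cells of that population. *Fabp5* stands highest in SC and mural cells, *Fabp4* in sinusoidal ECs, *Fabp3* in OBs, *Crabp2* in fibroblasts and *Rbp4* in chondrocytes, whereas *Ppard* does not pass 46.4 CPM in any population.

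*Fabp5* was high in the SCs, the population the study names by it. Its level in SCs was 324 CPM in metaphyseal library 1, 1938 CPM in metaphyseal library 2 and 1822 CPM in the *Pdgfra-GFP* library (mean 1361 ± 900 SD, n = 3 libraries). In mpMSCs, the nearest stromal population, the same libraries gave 111, 85.3 and 90.6 CPM (95.8 ± 13.8). Every SC value lay above every mpMSC value, although the SC value of metaphyseal library 1 was far below the other two. Between SCs and mpMSCs 2 of the 7 tested genes changed, *Fabp5* and *Crabp2*, where 4.94% of all 13599 genes tested did. The count is not read as an excess over that share. *Fabp5* names the SCs, and *Crabp2* had 0 UMIs in SCs and lost its call with DESeq2's Wald test and without the library block. *Fabp5* was higher in SCs by 3.47 ± 0.37 (SE) on the log2 scale (adjusted p = 3.93e-07). The difference ran from 3.08 to 4.27 with 1 library left out. The SC markers were chosen with earlier results of these data known, in which the SCs are named by *Fabp5*, so this difference is not independent evidence that these cells carry it.

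The *Fabp5* UMIs were unevenly spread over the SCs. In the *Pdgfra-GFP* library 86 SCs had no *Fabp5* UMI, 134 had 1 to 9 and 63 had 10 or more, and the 29 cells with the most held 74.1% of all *Fabp5* UMIs. In metaphyseal library 2 a single cell held 160 of the 209 *Fabp5* UMIs, and without it the level was 512 CPM. In metaphyseal library 1 the top cell held 18 of 62 UMIs, and the level without it was 239 CPM. Both values without the top cell still lay above the mpMSCs of all libraries. The share of SCs with a *Fabp5* UMI was close in the 3 libraries, at 63.2%, 66.7% and 69.6% (exact 95% intervals 38.4 to 83.7%, 34.9 to 90.1% and 63.9 to 74.9%). When every cell was thinned to 2000 UMIs the shares were 26.3%, 58.3% and 43.5%, against 12%, 8.60% and 11.5% of mpMSCs. Erythroid cells of the *Pdgfra-GFP* library, which should lack *Fabp5*, had a UMI in 10.0% of 50 cells (median 8006 UMIs per cell) before thinning, against 7786 UMIs per SC.

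In the *Pdgfra-GFP* library *Fabp5* was higher at higher SC marker scores. *Fabp5* did not enter the score, but its markers were chosen with SCs already named by *Fabp5*. The rise is therefore not independent evidence either. Among *Pdgfra-GFP* cells of SC and mpMSC type it was 92.0 CPM at scores under 0.1 and 84.6 CPM in the cells just below the cut (0.2 to 0.3). Just above the cut, at 0.3 to 0.4, it was 259 CPM, and it reached 417, 1440 and 5040 CPM in the steps above. The share of cells with a *Fabp5* UMI went from 21.5% at the lowest scores to 53.1% just above the cut and 95.8% of the 72 cells at 0.6 or more. The metaphyseal libraries had few cells per step. In metaphyseal library 1 the level was 185 CPM just below the cut and 139 CPM in the 9 cells just above it, then 360 CPM in 4 cells, 451 CPM in 5 cells and 841 CPM in the 1 cell at 0.6 or more. In metaphyseal library 2 it was 109 CPM just below the cut, 386 CPM in the 3 cells just above it, 1246 CPM in 2 cells at 0.5 to 0.6 and 3291 CPM in the 7 cells at 0.6 or more, of which 42.9% had a UMI. Of the 163 *Fabp5* UMIs in these 7 cells, 1 cell held 160. Above the cut the level was higher at each further step that held cells in all 3 libraries. In metaphyseal library 2 the last rise rests on that 1 cell.

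**Figure D2:**
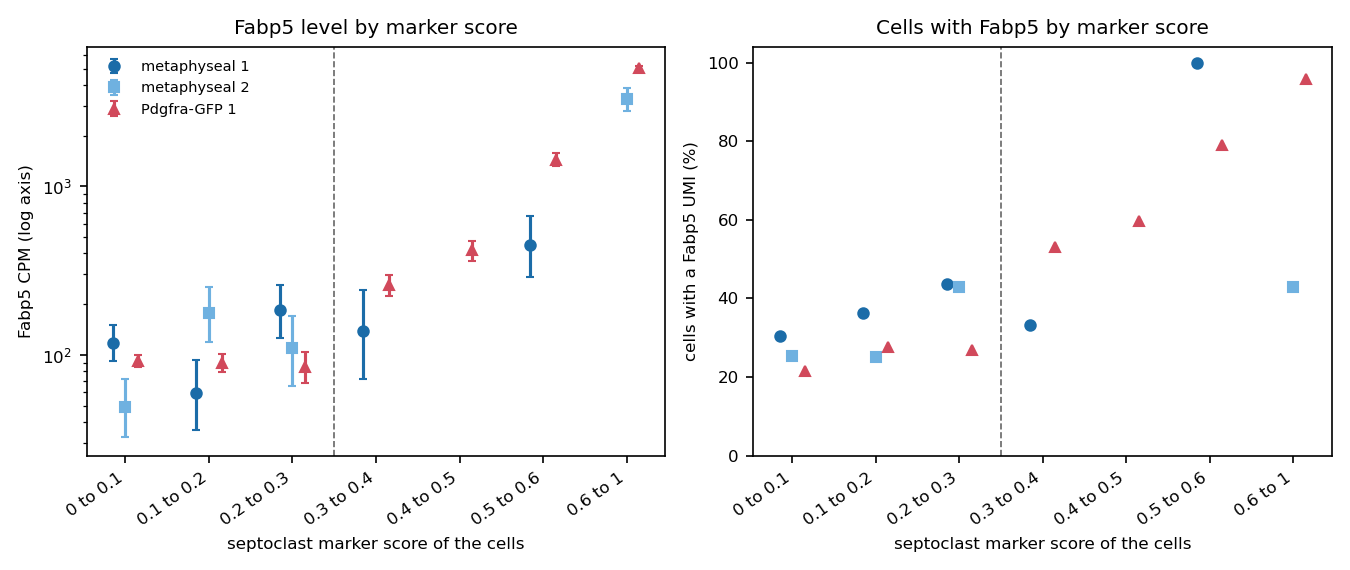
*Fabp5* level (CPM, log axis, bars are exact Poisson 95% intervals that cover counting error) and share of cells with a *Fabp5* UMI (%) against the SC marker score, per library, for bins of at least 5 cells. The dashed line marks the cut at 0.3 between mpMSC and SC, and the *Pdgfra-GFP* points climb from 84.6 CPM just below it to 5040 CPM at the highest scores. The score's markers were chosen with SCs already named by *Fabp5*. In the point of metaphyseal library 2 at 0.6 or more, 1 cell held 160 of the 163 UMIs.

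SCs were not alone in carrying *Fabp5*. Mural cells, the pericytes and smooth muscle cells around vessels, had 1763, 1321 and 1815 CPM (1633 ± 271), and 85%, 84.2% and 76.6% of them had a UMI. Without the top cell of each library the mural levels were 1490, 804 and 1521 CPM. In metaphyseal library 2 that cell held 82 of the 186 UMIs. Mural values overlapped with those of SCs, and the difference did not pass the test (-0.38 ± 0.33 on the log2 scale for SC against mural, adjusted p = 0.651). That difference turned to 0.27 without metaphyseal library 1 and to 0.52 under a stricter gate, which left 9 SCs in each metaphyseal library, too few to be summed, and so 1 SC sum. Against mpMSC, *Fabp5* was higher in mural cells by 3.85 ± 0.37 (adjusted p = 4.28e-09). Both comparisons with mural cells were added after the levels had been seen. SC sums held RNA of mural markers, with a summed level of the 7 mural markers of 758, 232 and 592 CPM over 5, 4 and 6 detected markers. Among these markers is *Notch3*, which the study also reported in SCs. Mural sums in turn held RNA of the 7 SC markers, at 395, 689 and 1224 CPM over 5, 4 and 7 detected markers. The part of either in the *Fabp5* levels was not tested.

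Phagocytes of the *Pdgfra-GFP* library also held *Fabp5*, at 716 CPM in 76 macrophages (exact Poisson 95% interval 643 to 795) and 390 CPM in 21 osteoclasts (319 to 472). By imaging, the paper found neither FABP5 protein nor *Pdgfra-GFP* signal in CD68+ osteoclasts. The values here are RNA of cells that came through the sort. Markers of macrophages and osteoclasts were close to 0 in SCs: the 5 macrophage markers summed to 0, 0 and 5.71 CPM and the 5 osteoclast markers to 5.23, 0 and 8.34 CPM. The macrophage sum in turn held 777 CPM of the 7 SC markers, with 6 detected. Its top cell held 71 of the 353 *Fabp5* UMIs, and without that cell the level was 589 CPM. The part of SC RNA in the macrophage level was not tested. Elsewhere *Fabp5* was low. It was 37.2, 41.2 and 76.7 CPM in diaphyseal mesenchymal stromal cells (dpMSCs), 33.1, 37.5 and 62.1 CPM in OBs, and 42.9, 51.2 and 80.9 CPM in chondrocytes. The dpMSC values all lay below the mpMSC values and the difference was -0.996 ± 0.346 on the log2 scale (adjusted p = 0.0319). This call was lost with DESeq2's Wald test (adjusted p = 0.0602), without the library block (0.30) and without either metaphyseal library (0.218 without the first, 0.227 without the second). *Fabp5* differences of OBs, chondrocytes and ECs from mpMSCs did not pass the test, but each passed as a lower level (-1.68, -1.58 and -1.52) when cells were named by cluster, where no cluster was named SC and the mpMSC clusters held the *Fabp5*-rich cells.

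*Fabp4*, the fatty-acid carrier known from adipocytes and capillary endothelium, was highest in the vessel wall. Sinusoidal ECs, which line the wide marrow vessels, had 11899 and 10304 CPM in the 2 metaphyseal libraries, and 97.5% and 98.0% of them had a UMI. Capillary ECs had 1499 and 1057 CPM, and arterial ECs 732 and 503 CPM. ECs of no subset had 4528 and 4457 CPM. The sinusoidal, capillary and arterial values did not overlap. *Fabp4* was the only 1 of the 7 genes to change between sinusoidal and capillary ECs, where 10.4% of all genes did, with a difference of 3.15 ± 0.60 (adjusted p = 0.000409). Without metaphyseal library 1, which leaves 1 sum for each subset assumed to vary like the other sums, the difference was 3.36 with an adjusted p of 0.0901. None of the 7 genes changed between arterial and capillary ECs, where 7.71% of all genes did, 0 had an unadjusted p under 0.05 and DESeq2 called 0. For *Fabp4* that difference was -1.06 ± 0.56 (adjusted p = 0.330), and it passed with no filter on low counts (adjusted p = 0.00325).

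Sinusoidal ECs held 74.3% and 74.5% of all *Fabp4* UMIs in the metaphyseal libraries while making up 18.8% and 17.8% of the cells. In the *Pdgfra-GFP* library, 87 sinusoidal ECs that came through the sort had 24008 CPM and held 42.2% of its *Fabp4* UMIs. The genes whose profile over the 36 sums was most like *Fabp4* were *Snrk*, *Cd300lg* and *Nr2f2* (Pearson's r of log2(CPM + 1) = 0.92, 0.90 and 0.90 among 6401 genes compared, with populations of a library sharing its depth).

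Mural cells followed, with 5256, 3714 and 6397 CPM of *Fabp4*, a level 6.87 ± 0.60 above mpMSC on the log2 scale (adjusted p = 5.38e-10). The 7 EC markers summed to 292, 220 and 121 CPM in these mural sums, and the part of EC RNA in their *Fabp4* level was not tested. Of the mural cells with *Fabp5*, 94.1%, 93.8% and 81.4% also had *Fabp4*, against 66.7%, 66.7% and 77.8% of those without. The cells without *Fabp5* numbered only 3, 3 and 18, and this is a description in cells of unequal depth. SCs had little *Fabp4*, with 178, 27.8 and 86 CPM, and 25 of the 34 UMIs of metaphyseal library 1 came from 1 cell. *Fabp4* thus parted the populations that share high *Fabp5*: it was 5.62 ± 0.58 lower in SCs than in mural cells (adjusted p = 4.19e-08), where 3 of the 7 genes changed against 7% of all genes.

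Among stromal cells *Fabp4* was highest in dpMSCs, the *Lepr* and *Cxcl12* cells of the marrow, with 141, 137 and 310 CPM against 72.7, 22.4 and 24.7 CPM in mpMSCs. These groups did not overlap, and the difference was 2.38 ± 0.51 (adjusted p = 0.000582). It was 1.86 with an adjusted p of 0.0783 when cells were named by cluster. *Fabp4* was concentrated in few dpMSCs: 20.1%, 17.3% and 17.1% had a UMI. Splitting dpMSCs by the adipocyte gene *Adipoq*, a split chosen after the values were seen, gave 143, 139 and 313 CPM with it and 0, 38.9 and 6.89 CPM in the 9, 10 and 42 cells without it. *Adipoq* is itself a marker of the dpMSC gate and was found in all other dpMSCs. The split thus does not single out the few cells with *Fabp4*. Free RNA carried *Fabp4* in the metaphyseal libraries, where near-empty droplets had 2267 and 1795 CPM against 337 CPM in the *Pdgfra-GFP* library. B-lineage cells, which should lack it, had 20.6, 24.2 and 10.4 CPM, and the levels in mpMSCs of metaphyseal library 2 (22.4 CPM) and in chondrocytes (22.3, 31.8 and 20.1 CPM) were of that size. Neutrophils had a mean of 48.6 CPM and ran from 16.9 to 85.2 CPM over the libraries, a range that spans all the mpMSC values.

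**Figure D3:**
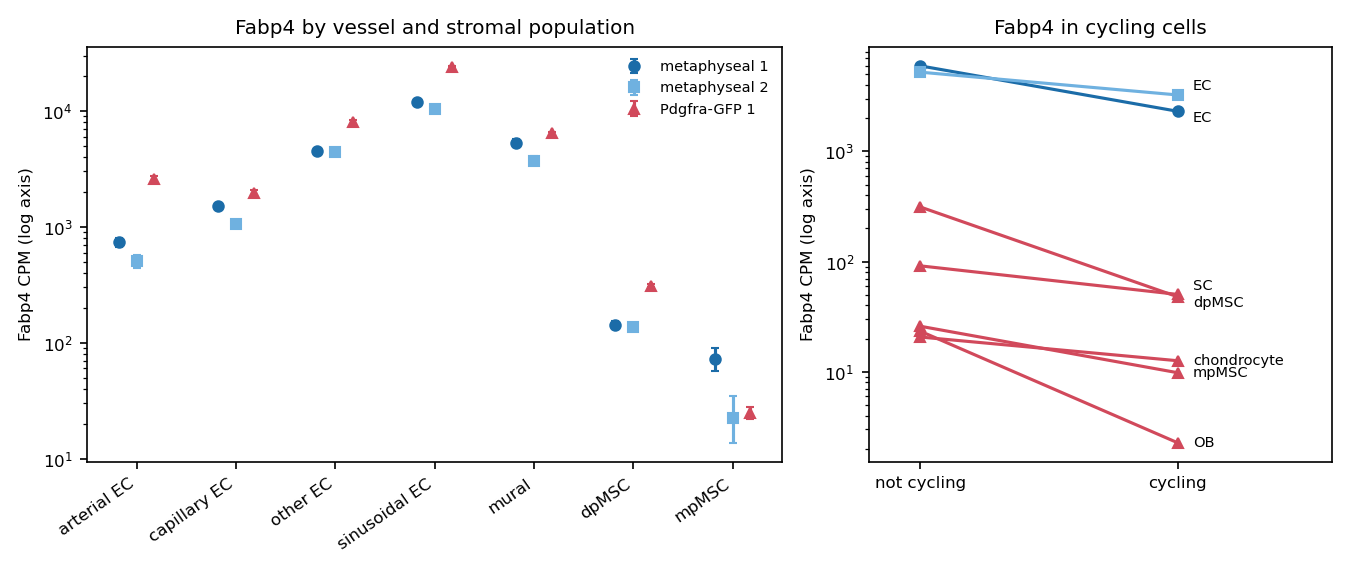
*Fabp4* level (CPM, log axis, bars are exact Poisson 95% intervals that cover counting error) per library in 4 EC groups, mural cells, dpMSCs and mpMSCs, with the ECs of the *Pdgfra-GFP* library that entered no test, and in 7 pairs of not cycling and cycling cells of a cell class and library joined by lines. The EC pairs pool the 4 EC groups. Sinusoidal ECs stand at 10304 CPM or more, and all 7 lines fall from not cycling to cycling cells.

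Against mpMSC, ECs changed in 4 of the 7 genes, where 43.6% of all genes did. The EC side of this comparison was the mean of the 4 EC groups on the log scale, each with equal weight. It is not the level of all ECs pooled. *Fabp4* was higher by 5.90 ± 0.55 (adjusted p = 2.20e-10). The lower genes were *Fabp3* (-4.76 ± 0.55, adjusted p = 2.39e-08), *Rbp4* (-6.21 ± 0.51, 2.13e-11) and *Fabp7* (-6.73 ± 1.16, 2.55e-05), each of which had 11 or fewer UMIs over all ECs of a metaphyseal library.

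*Fabp3*, the carrier best known from heart and skeletal muscle, marked OBs. OBs had 122, 97.4 and 74.5 CPM (98.0 ± 23.8, n = 3), while SCs had 26.1, 18.5 and 21.5 CPM and mpMSCs 12.3, 13.5 and 9.09 CPM. The highest value in another population of at least 10 cells was the 26.1 CPM of the SCs in metaphyseal library 1, below every OB value, and OBs held 89.7%, 90.2% and 81.8% of all *Fabp3* UMIs of the libraries. Between OBs and mpMSCs 3 of the 7 genes changed, where 37.6% of all genes did. *Fabp3* was higher in OBs by 3.91 ± 0.24 on the log2 scale (adjusted p = 5.93e-13). TMM scaling raised OB differences by 0.745 and those of chondrocytes by 0.356 relative to CPM, so the OB difference in CPM was smaller than the fitted one. OBs were also deep, with median UMIs per cell of 21712, 20897 and 11220. At 2000 UMIs per cell 21.1%, 15.8% and 13.4% of OBs had a *Fabp3* UMI, against 0.926%, 2.15% and 1.69% of mpMSCs.

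*Fabp3* was close in OBs with and without late markers. In OBs with *Dmp1*, *Mepe* or *Phex* it was 124, 99.9 and 74.5 CPM, and in OBs without these genes 116, 92.1 and 74.5 CPM, so the intervals overlapped in each library. This split was chosen after the values were seen. At the other end stood dpMSCs, in which *Fabp3* had 2, 1 and 18 UMIs (0.462, 0.247 and 1.12 CPM), 3.58 ± 0.36 lower than in mpMSCs (adjusted p = 9.13e-09). In SCs *Fabp3* was above every mpMSC value, but the difference of 1.02 ± 0.34 did not pass the test (adjusted p = 0.0865). It was 4.04 ± 0.96 higher in SCs than in mural cells, which had 1 *Fabp3* UMI in all (adjusted p = 0.00606), and that call was lost without metaphyseal library 1 (0.0823) and without the *Pdgfra-GFP* library (0.107). The 6 OB markers summed to 1411, 2967 and 1937 CPM in the SC sums (5, 4 and 6 detected) and to 79.0, 142 and 1211 CPM in the mural sums (3, 3 and 6 detected), and the part of OB RNA in this difference was not tested. The profiles most like *Fabp3* over the 36 sums were those of *Smpd3*, *Cdo1* and *Gxylt2* (r = 0.88, 0.85 and 0.84).

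*Fabp7*, a carrier known from radial glia and other neural cells, was highest in mural cells. They had 63.2, 121 and 325 CPM from 8, 17 and 142 UMIs, and 25%, 42.1% and 31.2% of them had a UMI. Osteoclasts of the *Pdgfra-GFP* library had 70.5 CPM (19 UMIs in 21 cells). mpMSCs had 58.5, 3.37 and 15.1 CPM, and the first of these rested on 1 cell with 50 of 62 UMIs, without which it was 11.5 CPM. That cell passed the cycling gate. The mural difference from mpMSC was 3.02 ± 0.57 (adjusted p = 0.000433), among 4 of 7 genes that changed where 12.8% of all genes did. It fell to 1.58 without the *Pdgfra-GFP* library (adjusted p = 0.154) and was lost with DESeq2's Wald test (0.343). *Fabp7* was lower in SCs than in mural cells by 3.42 ± 0.65 (adjusted p = 0.000802), a call also lost without the *Pdgfra-GFP* library (0.0755) and with DESeq2's Wald test (0.131). In dpMSCs of the metaphyseal libraries it had 0 UMIs, and the difference from mpMSCs passed the test (adjusted p = 3.23e-06), as did the lower level in OBs (-2.77 ± 0.61, adjusted p = 0.000671).

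*Crabp2* was a fibroblast gene in these data. The 299 fibroblasts of the *Pdgfra-GFP* library, the only library with at least 10 of them, had 220 CPM (426 UMIs, exact Poisson 95% interval 200 to 242), and 37.1% of them had a UMI. With 1 library there is no test of this level. Fibroblasts were 2.66% of the cells and held 58.8% of the *Crabp2* UMIs of the library. In other gated populations *Crabp2* stayed under 10 CPM. This does not cover the cells that passed no gate. Fibroblasts without *Pi16* or *Dpt*, markers of universal fibroblasts, had 266 CPM and those with either had 171 CPM, in a split chosen after the values were seen. *Pi16* and *Dpt* are themselves markers of the fibroblast gate, so the split is not independent of it. The profiles most like *Crabp2* were those of the tendon and connective tissue genes *Tnmd*, *Thbs4* and *Mfap5* (r = 0.88, 0.83 and 0.82), with *Crabp2* above 10 CPM in 1 of the 36 sums.

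*Crabp2* was not detected in SCs. Over the 3 libraries 0 of 2577254 UMIs in SCs were of *Crabp2*, and 0 of 314 cells had one, which allows up to 0.955% of cells with a UMI and sets no limit on cells that express the gene below detection. Against the 3.85 CPM of pooled mpMSCs (49 UMIs, 48 of them from the *Pdgfra-GFP* library), SCs were at least 3.31-fold lower, taking 3 UMIs over all SCs as the floor of 1.16 CPM. Near-empty droplets of the *Pdgfra-GFP* library held *Crabp2* at 12.9 CPM, above the 4.45 CPM of its mpMSCs, and the part of free RNA in the mpMSC level was not tested. In the metaphyseal libraries the near-empty droplets held 0 *Crabp2* UMIs. The edgeR test called this difference (adjusted p = 0.00734), but DESeq2's Wald test (0.755), the fit without the library block (0.505) and the stricter gate (0.227) did not. The lower levels in dpMSCs (adjusted p = 0.00272), with 2, 1 and 20 UMIs, and in chondrocytes (0.0291), with 0, 0 and 21 UMIs, were also called. The dpMSC call was lost under 4 alternatives, DESeq2's Wald test among them (0.401), and the chondrocyte difference turned from -1.16 to 0.25 when cells were named by cluster and to 0.062 under the stricter gate.

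*Crabp1* was at 0 in all cells of both metaphyseal libraries and had 68 UMIs in the *Pdgfra-GFP* library, 28 of them in dpMSCs and 18 in fibroblasts (9.31 CPM, interval 5.52 to 14.7). It is the second retinoic acid carrier of the family and was too rare to test.

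The balance of *Fabp5* to *Crabp2*, the carriers described as serving *Ppard* and the retinoic acid receptors, was described as the log2 ratio of their UMIs with 1 added to each. It was -1.91 in fibroblasts, the only population with more *Crabp2* than *Fabp5* UMIs. In SCs it was 5.98, 7.71 and 12, in mural cells 7.81, 7.55 and 9.63, and in mpMSCs 5.89, 6.27 and 4.32. *Crabp2* was 0 in all SC and mural sums and in the mpMSC sum of metaphyseal library 2, so those ratios depend on the added UMI and grow with the number of cells. They were not tested.

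*Rbp4*, the carrier that takes retinol through the blood and is made mainly by liver and fat, was the chondrocyte gene of the set. Chondrocytes had 1177, 763 and 776 CPM (905 ± 235, n = 3), and 67.5%, 38.9% and 58.0% of them had a UMI. dpMSCs followed with 68.4, 85.8 and 98.1 CPM, OBs with 65.7, 27.7 and 57.2 CPM and mpMSCs with 51.9, 44.9 and 57.9 CPM. Chondrocytes lay above every other population in every library, and the difference from mpMSC was 4.49 ± 0.29 on the log2 scale (adjusted p = 6.30e-13). In that comparison 3 of the 7 genes changed, where 37.7% of all genes did. Capillary ECs, which should lack *Rbp4*, had a UMI in 1.38% and 1.21% of cells in the metaphyseal libraries (median 6197 and 6475.5 UMIs per cell, against 16238 and 20774 in chondrocytes). Leaving out the top cell left 1032, 631 and 760 CPM in the chondrocytes.

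Chondrocytes differed among themselves in *Rbp4*. Each was placed by the marker list with the highest summed level in the cell, a split chosen after the values were seen. A cell did not need a UMI of every gene of its list. Cells led by *Col9a1* and *Matn3*, of the growth plate, had 193, 74.1 and 361 CPM. Cells led by *Col10a1* and *Ihh*, of the hypertrophic zone, had 1896, 2666 and 1132 CPM. These values did not overlap between the groups and were higher in the hypertrophic cells of each library. The metaphyseal libraries held only 40 and 36 chondrocytes in all. In metaphyseal library 2 the 4 cells with the most held 70.3% of the *Rbp4* UMIs of chondrocytes, and 22 had none. The *Pdgfra-GFP* library also held 265 cells led by *Prg4* and *Cilp*, genes of the joint surface, at 1365 CPM (1309 to 1424). A further 114 cells were led by *Efemp1*, *Sfrp5* and *Chil1*, at 4630 CPM (4493 to 4771). In the last group 93.0% of the cells had a UMI, and the metaphyseal libraries held 1 such cell each. The genes most like *Rbp4* in profile were *Fibin*, *Fmod* and *Smoc2* (r = 0.91, 0.90 and 0.90).

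**Figure D4:**
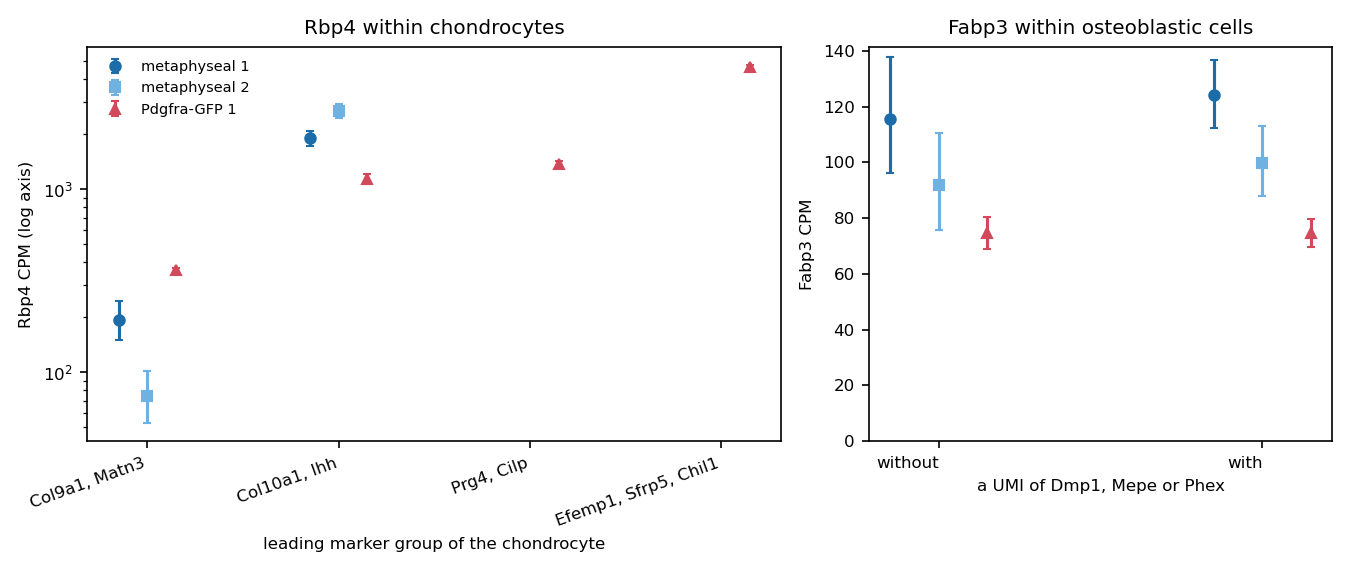
*Rbp4* level (CPM, log axis) in 4 marker groups of chondrocytes and *Fabp3* level (CPM) in OBs with and without *Dmp1*, *Mepe* or *Phex*, per library, for groups of at least 5 cells with exact Poisson 95% intervals that cover counting error. *Rbp4* is at 1132 CPM or more in the *Col10a1* and *Ihh* cells and at 361 CPM or less in the *Col9a1* and *Matn3* cells, whereas the *Fabp3* intervals of the 2 groups of OBs overlap in each library.

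Mural cells had almost no *Rbp4*, with 0, 0 and 4 UMIs, 3.47 ± 0.74 lower than mpMSC (adjusted p = 0.00133). Without the *Pdgfra-GFP* library all mural sums were at 0 and the call was lost (adjusted p = 0.0803). SCs had 10.5, 46.4 and 23.7 CPM, and the lower level against mpMSC did not pass the test (-1.34 ± 0.41, adjusted p = 0.0539). OBs passed it at 0.70 ± 0.28 (adjusted p = 0.0466) although their mean of 50.2 CPM was below the 51.6 CPM of mpMSCs, so the call came with the scaling of OB sums given above. It was lost under 7 alternatives, among them DESeq2's size factors (0.0759). The dpMSC difference of 0.70 ± 0.27 missed the threshold (adjusted p = 0.0613) and passed it with called doublets left out (0.0344).

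*Ppard*, the receptor, was low and widely spread. It was 25.4, 31.8 and 27.8 CPM in dpMSCs (28.3 ± 3.24) and 23.7, 35.5 and 32.0 CPM in mural cells, against 14.2, 18 and 13.2 CPM in mpMSCs and 7.25, 7.92 and 7.55 CPM in OBs. SCs had 15.7, 46.4 and 14.5 CPM from 3, 5 and 33 UMIs, and ECs 13.4 and 13.9 CPM. The dpMSC values did not overlap with those of mpMSCs, and the difference was 0.91 ± 0.21 (adjusted p = 0.00103). The mural difference from mpMSC of 0.91 ± 0.37 did not pass the test (adjusted p = 0.111). With the scaling of OB sums given above, the OB difference was -0.14 and did not pass either (adjusted p = 0.911). Between dpMSCs and mpMSCs 6 of 7 genes changed (2 higher and 4 lower), where 25.8% of all genes did. The chondrocyte difference of 0.64 ± 0.24 (adjusted p = 0.0314) was lost under 8 alternatives. In SCs, where *Fabp5* was high, *Ppard* did not pass the test (0.18 ± 0.31, adjusted p = 0.861).

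**Figure D5:**
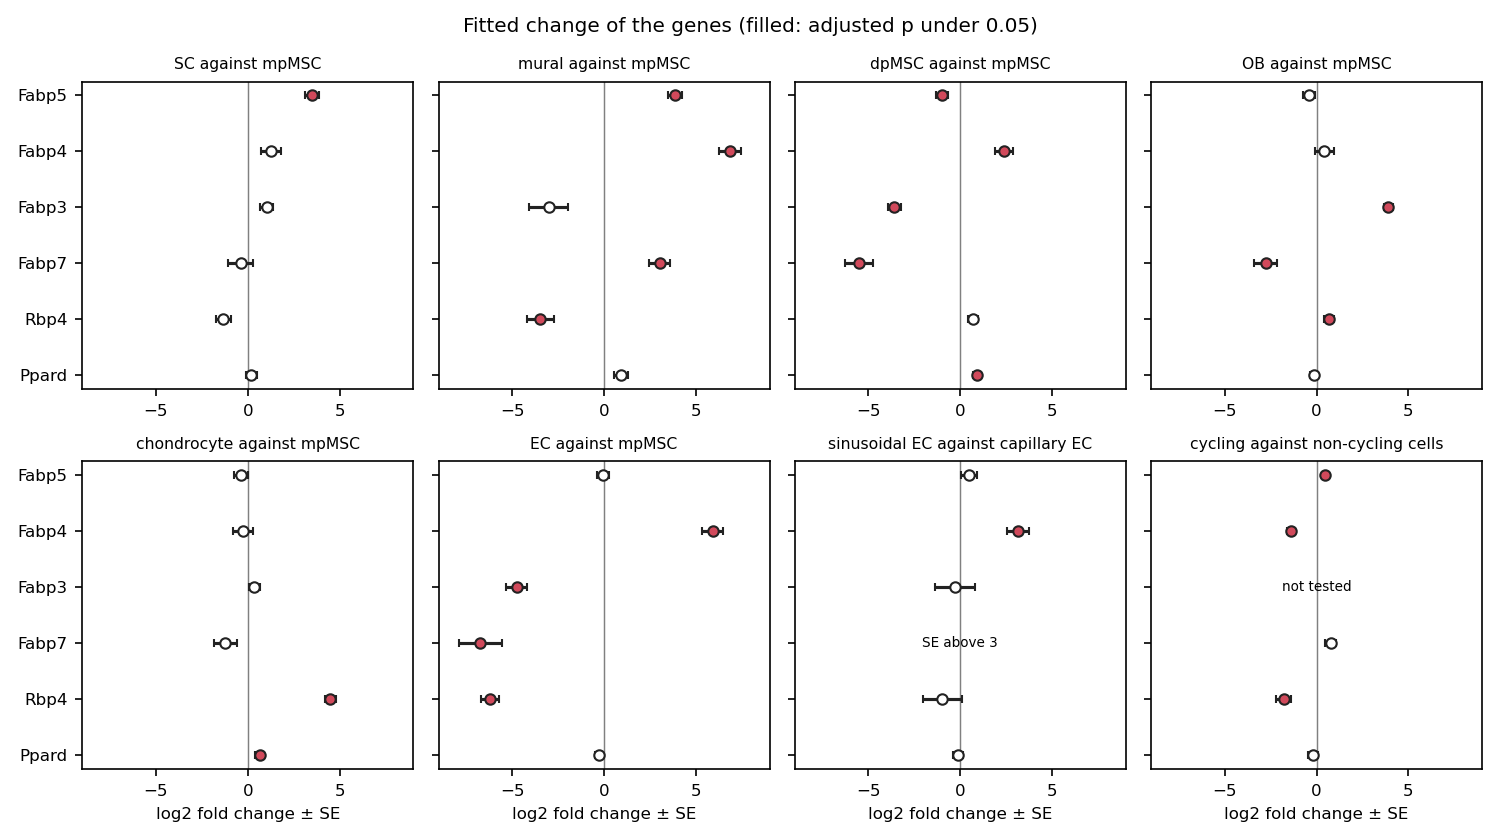
Log2 fold change with its SE for *Fabp5*, *Fabp4*, *Fabp3*, *Fabp7*, *Rbp4* and *Ppard* in 8 comparisons between populations (filled points passed an adjusted p of 0.05 in edgeR's quasi-likelihood test). *Fabp5* rises by 3.47 in SCs and 3.85 in mural cells against mpMSC, *Fabp3* by 3.91 in OBs, *Rbp4* by 4.49 in chondrocytes and *Fabp4* by 5.90 in ECs. The EC value is the mean of the 4 EC groups with equal weight.

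Cycling and non-cycling cells were compared within cell class and library, in 7 pairs with at least 10 cells of both. There were 2 pairs of ECs from the metaphyseal libraries and 5 of SCs, mpMSCs, dpMSCs, OBs and chondrocytes from the *Pdgfra-GFP* library. The EC pairs pooled all EC subsets, which differ in *Fabp4*, and the chondrocyte pair pooled marker groups that differ in *Rbp4*. The part of these mixtures in the differences was not tested. Of the 5 genes tested 3 changed, where 24.7% of all 9320 genes tested did. *Fabp4* was lower in cycling cells of 7 of 7 pairs. In ECs it was 2309 against 5963 CPM and 3246 against 5227 CPM, and over the pairs the difference was -1.41 ± 0.22 (adjusted p = 0.000163). *Fabp5* was higher in 7 of 7 pairs, for instance 2433 against 1730 CPM in SCs and 135 against 87.0 CPM in mpMSCs. Its difference of 0.46 ± 0.13 (adjusted p = 0.0134) was lost with no filter on low counts (0.152) and with cells named by cluster (0.121). *Rbp4* was lower in 5 of 7 pairs, with a difference of -1.79 ± 0.42 (adjusted p = 0.00485), and most in chondrocytes, with 74.7 CPM in cycling and 833 CPM in other cells. That call was lost with DESeq2's Wald test (0.0544) and with cells named by cluster (0.320). *Fabp3*, *Crabp1* and *Crabp2* did not pass the filter here.

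A list of 47 other genes of lipid and retinoid handling gave the surroundings of these carriers, 32 of which passed the filter. In SCs against mpMSC 2 rose and 1 fell, where 4.94% of all genes changed (median log2 fold change 0.01 over the list and -0.15 over all genes). *Aldh1a3*, which makes retinoic acid, rose by 2.13 ± 0.42 (adjusted p = 0.00153). *Dhrs3*, which returns retinal to retinol, fell by 1.99 on the log2 scale (8.80e-05). The list held 14 tested genes of retinoid handling, 11 of fatty-acid uptake and 7 known as *Ppard* targets in other tissues. In mural cells against mpMSC, where 12.8% of all genes changed, 6 of the 32 rose and 4 fell, with *Aldh1a1* (3.73 ± 1.01), *Cyp26b1*, which breaks down retinoic acid (3.39 ± 0.80), and *Ucp2* (3.16 ± 0.60) the highest and *Slc27a1* (-7.24 ± 2.30), *Pdk4* (-3.36 ± 0.66) and *Aldh1a2* (-2.59 ± 0.67) the lowest. Between SCs and mural cells, where 7% of all genes changed, 4 were higher and 2 lower in SCs. *Aldh1a3* and *Aldh1a2*, both makers of retinoic acid, were higher in SCs by 4.25 ± 0.87 and 2.64 ± 0.72 and the retinol dehydrogenase *Rdh10* by 2.01 ± 0.61, while *Cyp26b1* (-8.51 ± 1.80) and *Pparg* (-2.51 ± 0.32) were lower.

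In dpMSCs 9 of the 32 genes rose and 4 fell, where 25.8% of all genes changed (medians 0.18 over the list and 0.06 over all genes). Lipoprotein lipase *Lpl* rose by 5.14 ± 0.65, the fatty-acid transporter *Cd36* by 3.23 ± 0.63 and the adipocyte receptor *Pparg* by 2.60 ± 0.23. *Aldh1a3* (-3.04 ± 0.46), *Cyp26b1* (-2.49 ± 0.83) and *Acsl3* (-1.44 ± 0.24) fell most. In sinusoidal against capillary ECs 8 of the 32 rose and 2 fell, where 10.4% of all genes changed, led by *Angptl4* (3.94 ± 0.43), *Cd36* (3.83 ± 0.35) and *Pparg* (3.44 ± 0.26), while *Rbp7* fell by 2.56. Of these 8, 5 were among the 11 genes of fatty-acid uptake and handling. Arterial ECs differed from capillary ECs in 4 of the 32 genes, where 7.71% of all genes changed, *Slc27a3* higher (3.78 ± 0.40) and *Pparg*, *Dhrs3* and *Gpihbp1* lower. In ECs against mpMSC, again as the equally weighted mean of the 4 EC groups, 43.6% of all genes changed. Of the 32 genes 9 rose, with *Rbp7* (7.30 ± 0.62), *Gpihbp1* (6.61 ± 0.32) and *Cd36* (6.09 ± 0.67) first. The 10 that fell included *Aldh1a2* (-5.89 ± 0.49) and *Aldh1a3* (-5.69 ± 0.78).

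In OBs 5 of the 32 genes rose and 12 fell, where 37.6% of all genes changed (median -0.38 over the list and -0.05 over all genes). Those that fell included *Aldh1a2* (-4.00 ± 0.36) and *Pparg* (-2.72 ± 0.30). The rises of *Rarg* (0.54), *Rxrb* (0.64) and *Cpt1a* (0.60) were smaller than the 0.745 by which TMM scaling raised OB differences relative to CPM. In chondrocytes, where 37.7% of all genes changed, 9 of the 32 rose and 9 fell. *Cyp26b1* (3.90 ± 0.58), *Ucp2* (2.66 ± 0.43) and *Aldh1a1* (2.32 ± 0.71) rose most, and *Aldh1a2* (-4.04 ± 0.43), *Pparg* (-3.01 ± 0.36) and *Pdk4* (-2.99 ± 0.37) fell most. In cycling cells, where 24.7% of all genes changed, 1 of 23 tested genes rose, the retinal reductase *Rdh11* (1.10 ± 0.19), and 6 fell, with *Pparg* (-1.36 ± 0.27), *Angptl4* (-1.20 ± 0.22) and *Lpl* (-0.99 ± 0.20) first. The other fatty-acid binding proteins, *Fabp1*, *Fabp2*, *Fabp6*, *Fabp9*, *Fabp12* and *Pmp2*, passed the filter in no comparison.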

How the data were processed

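The authors trimmed reads with fastp 0.20 and aligned them with STAR 2.7.3a (STARsolo) to mm10 with Gencode M23 plus the reporter's sequence. What they deposited are UMI counts of every barcode, not normalized. These deposited counts were used as they were. Cells were kept at 1500 or more genes (metaphyseal) or 1000 or more (*Pdgfra-GFP*), at most 15% mitochondrial and 30% ribosomal UMIs, which left 2382, 2004 and 11250 cells (median 6257, 6426 and 5332.5 UMIs). A gate score is the mean over a population's markers of log-scaled UMIs per 10000, each divided by its 90th percentile. The highest score of at least 0.3 named the cell. A cell whose highest score was SC or mpMSC was named SC at an SC score of 0.3 or more, even where its mpMSC score was higher. An EC took its highest subset score of at least 0.25 if it led the next by at least 0.1. Scrublet in scanpy 1.11.5 called 26, 17 and 166 doublets, which were kept. UMIs were summed per library and population of at least 10 cells and tested with edgeR 4.0.16 in R 4.3.3 (quasi-likelihood, TMM, Benjamini-Hochberg, threshold 0.05) with library as a block, since populations of a library come from one suspension. Alternatives included DESeq2 1.42.0. Intervals are exact at the 95% level and cover counting error only. The genes, lists and markers were chosen with earlier results of these data known. All 8 genes were named in every population, with the 3 largest changes of the pathway list in each direction, some of which are not reported here. The test was also run on simulated counts drawn from its own fitted means and spread, which cannot show whether that model suits the data.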

Additional observations from a re-analysis of the deposited data

Results flagged for a closer look

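A difference between library types was tested for each gene and population as an interaction term in a separate edgeR fit. It used the sums of SCs, mpMSCs, dpMSCs, OBs, chondrocytes and mural cells, over 11766 genes, and called 27 genes for mural cells and 46 for OBs. *Fabp7* passed in both. Its log2 fold change of mural cells against mpMSC was 3.00 ± 0.63 (SE) higher in the *Pdgfra-GFP* library than in the metaphyseal libraries (adjusted p = 0.0394). Its log2 fold change of OBs against mpMSC was 4.83 ± 1.08 higher there (adjusted p = 0.0456). Both share the mpMSC sum of metaphyseal library 1, in which 1 cycling cell held 50 of 62 *Fabp7* UMIs. The *Fabp7* level of OBs was near 0, at 0.227 CPM in metaphyseal library 1. With 1 *Pdgfra-GFP* library the sort, the reporter allele, the dissected region and the library cannot be told apart. For *Fabp5* in SCs the same term was 1.19 ± 0.57 and did not pass (adjusted p = 0.969).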

How the results depend on the processing

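Of 381 values of single genes under the alternatives, over 35 results, 326 kept their direction and their side of the threshold, 44 lost and 7 gained the call, and 4 reversed. Among the 35 results, 16 kept both in every alternative run. The reversals were *Crabp2* in chondrocytes against mpMSC (0.25 named by cluster, 0.062 under the stricter gate) and *Fabp5* in SCs against mural cells (0.27 without metaphyseal library 1, within a range of -0.83 to 0.27 when each library was left out in turn, and 0.52 under the stricter gate). The count of changed genes among the 8 moved as follows. For SCs against mpMSC, 2 became 4 with no filter on low counts and 1 under each of the stricter gate, the fit that drops the library block and the Wald test of DESeq2, and 1 to 2 with 1 library left out. For chondrocytes, 3 became 1 without the block and under the stricter gate, and 1 with any library left out. For arterial against capillary ECs, 0 became 1 with no filter, and for cycling cells 3 became 1 when named by cluster. Leaving out 1 library gave 0 to 1 for sinusoidal against capillary ECs, 2 to 4 for mural cells against mpMSC and 1 to 3 for SCs against mural cells. The cause was not tested. The stricter gate left 9 SCs in each metaphyseal library, so its SC values rest on the *Pdgfra-GFP* sum, and naming by cluster gave no SC cluster and so no SC value.

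Counts of called genes over all genes moved by more than 1.5 times without the library block, to 229 for SCs, 1794 for dpMSCs, 3052 for OBs, 3357 for chondrocytes, 517 for sinusoidal and 520 for arterial against capillary ECs, 1072 for mural cells and 598 for SCs against mural cells. With 1 library left out they ran from 174 to 360, 1769 to 3134, 3045 to 4114, 3346 to 3598, 247 to 2849, 198 to 1618, 814 to 1273 and 454 to 570 in that order, and from 3559 to 5232 for ECs. Naming by cluster gave 2218 for sinusoidal ECs, and no filter gave 3705 for cycling cells. Median log2 fold changes of all genes moved from -0.15 to -0.04 for SCs and from -0.26 to -0.06 for mural cells under DESeq2's size factors, and the calls went from 301 higher and 371 lower to 366 and 300 for SCs and from 725 and 1020 to 894 and 651 for mural cells. Thinning to 2000 UMIs lowered 27 of 28 shares. Populations were compared within library throughout, by the library block. Depth limits the SC values: metaphyseal SCs number 19 and 12, and *Fabp3*, *Fabp7*, *Crabp2*, *Rbp4* and *Ppard* there rest on 5 or fewer UMIs.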

Other observations

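Within mural cells of the *Pdgfra-GFP* library, 62 cells leaned to pericyte markers and 15 to smooth muscle markers. *Fabp5* was 1949 CPM (exact Poisson 95% interval 1806 to 2100) in the first and 1255 CPM (1028 to 1518) in the second, *Fabp4* was 7061 and 3624 CPM, and *Fabp7* was 366 and 154 CPM. With 1 library there is no test. In metaphyseal library 1 the 2 smooth muscle cells had 2547 CPM of *Fabp5* against 1632 CPM in 18 pericytes, the opposite order. The mural sum of metaphyseal library 1 also held 13713 CPM of the 6 neutrophil markers.

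The profiles most like *Fabp5* over the 36 sums were those of *Vdac1*, *Pfdn1*, *Thy1*, *Itgav* and *Bin1*, at Pearson's r of 0.71, 0.68, 0.68, 0.68 and 0.67, below the best likenesses of *Fabp4*, *Fabp3*, *Crabp2* and *Rbp4*. For *Fabp7* they were *Fam162a*, *Ppp1r14a* and *Steap4* (0.70, 0.70 and 0.68).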
